A study of Mus musculus with 6 samples.

Results

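Tenomodulin (Tnmd), the cartilage intermediate layer protein gene Cilp2, Comp, Tnc and Postn were lower in plantar flexor muscle of C26 tumor-bearing mice than in control muscle, whereas Thbs4 was higher by less than 1.5-fold and no difference was detected for Cilp. These are 7 of a set of 10 genes of tendon cells and of the noncollagenous tendon matrix. The set was chosen by name, with earlier results of these data known. It holds the transcription factor genes Scx and Mkx and the tendon cell or matrix genes Tnmd, Thbs4, Comp, Cilp, Cilp2, Tnc, Fbln7 and Postn. Each of the 10 had 1 probe set of its own among the 18782 uniquely named genes of the array. The tissue was gastrocnemius and plantaris muscle of male CDF1 mice that were 8 weeks old at the start. Control mice received PBS/matrigel in both flanks, and C26 mice received C26 adenocarcinoma cells in the same carrier, so that the matrigel injection was shared by both groups. Muscles were taken at day 25 after inoculation, from 3 control and 4 C26 mice. RNA was combined from 2 to 3 muscles at a time within a group. The labels number the 3 resulting control pools 1, 2 and 3 and the 3 C26 pools 1, 3 and 4, and a whole-transcript array (Affymetrix Mouse Gene 1.0 ST) was run for each. Pools of a group may share mice, so that the SDs and p-values given here measure the spread between pools only.

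Tendon joins muscle to bone, and its cells, the tenocytes, lie in rows between bundles of collagen. Scleraxis, a basic helix-loop-helix factor encoded by Scx, marks the tendon lineage from its progenitors on, and mohawk, a homeodomain factor encoded by Mkx, acts in the later growth of collagen fibrils. Both are known to activate tendon genes, and tenomodulin, a membrane protein of mature tenocytes, is the marker most often used downstream of scleraxis. The other genes of the set encode secreted proteins that sit between or on collagen fibrils. Limb muscle dissected with its aponeuroses and tendon ends carries tenocytes and connective tissue cells beside the fibers, and all of them contribute to the RNA measured here.

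Scleraxis binds E-boxes, whose letters are CANNTG on either strand. The 250 bases before the annotated start (RefSeq, GRCm38.p6, in the direction of the gene) are shown for the members with the largest falls and a promoter entry, Tnmd and Cilp2, and for Thbs4 and Cilp, which did not fall, with each E-box in capitals. Tnmd lies at chrX:133850758-133851007 on the plus strand, Cilp2 at chr8:69887393-69887642 on the minus strand, Thbs4 at chr13:92794819-92795068 on the minus strand and Cilp at chr9:65264930-65265179 on the plus strand.
Tnmd: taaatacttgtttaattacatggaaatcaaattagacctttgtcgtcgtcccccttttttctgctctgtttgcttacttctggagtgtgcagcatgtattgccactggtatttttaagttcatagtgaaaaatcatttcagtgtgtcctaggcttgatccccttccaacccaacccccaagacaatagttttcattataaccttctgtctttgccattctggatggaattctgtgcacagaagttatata
Cilp2: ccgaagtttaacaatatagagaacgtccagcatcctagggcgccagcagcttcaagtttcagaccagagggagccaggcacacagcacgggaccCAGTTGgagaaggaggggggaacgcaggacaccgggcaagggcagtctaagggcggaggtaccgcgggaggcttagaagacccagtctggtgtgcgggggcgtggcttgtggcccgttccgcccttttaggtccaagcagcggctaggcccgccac
Thbs4: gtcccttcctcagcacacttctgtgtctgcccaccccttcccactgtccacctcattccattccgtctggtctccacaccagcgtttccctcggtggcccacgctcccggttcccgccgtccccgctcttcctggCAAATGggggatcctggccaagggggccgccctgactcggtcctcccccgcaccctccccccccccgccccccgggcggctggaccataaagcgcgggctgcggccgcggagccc
Cilp: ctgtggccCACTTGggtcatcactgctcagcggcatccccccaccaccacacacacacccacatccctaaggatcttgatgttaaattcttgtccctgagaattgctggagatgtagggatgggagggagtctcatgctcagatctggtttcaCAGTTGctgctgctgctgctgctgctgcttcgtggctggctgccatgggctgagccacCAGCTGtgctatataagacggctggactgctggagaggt

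The window of Tnmd held 0 E-boxes, that of Cilp2 held 1, that of Thbs4 held 1 and that of Cilp held 3. E-boxes are frequent, since 66.2% of 32851 such windows held at least 1. Promoter sequences of 7 of the 10 members were matched by gene ID, and 5 of their 9 windows held an E-box (Tnc and Postn each have 2 annotated starts). The pentamer CAGAC, which Smad proteins can bind and which was searched on both strands, was present in 42.2% of all windows, 2 times in that of Cilp2, 2 times in that of Thbs4, 0 times in that of Tnmd and 0 times in that of Cilp. Fbln7, which did not fall either, had 0 of both. Of the other genes that fell, Tnc had 3 and 2 E-boxes in its 2 windows, and Postn had 0 in each. The 2 windows of Tnc overlap, and both E-boxes of the second are also in the first. CAGAC was found 0 times and 1 time in the windows of Tnc, and 1 time and 0 times in those of Postn. A match of these letters is a description of the window and does not show a binding site. A window without a match says nothing of sites outside it.

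Expression is given as the log2 value that the authors obtained by RMA, and groups as mean ± SD of 3 pools. A gene is said to have fallen or risen where limma gave an adjusted p (Benjamini-Hochberg, over all 21212 probe sets) of 0.05 or less together with a difference of 1.5-fold or more. Array medians lay between 4.93 and 5.02, and arrays of a group correlated at 0.994 to 0.996 against 0.976 to 0.981 between groups. Receptor genes of smell and pheromone sensing gave a background of 3.82 (95th percentile of 1261 probe sets), and 10 of the 10 tendon genes lay above it in both groups. Fiber genes stood high in both groups, with Ckm, the muscle creatine kinase gene, at 12.73 ± 0.02 in control and 12.71 ± 0.04 in C26 muscle. In C26 muscle 5 of the 10 tendon genes fell and 0 rose, whereas 4.95% of all probe sets fell and 5.94% rose. Without the 1.5-fold minimum, 7 of the 10 were lower and 1 was higher, against 15.8% and 14.3% of all probe sets. Every C26 pool lay below every control pool for 8 of the 10, a pattern that 24.6% of all probe sets had, and above for 1, as for 19.3% of all probe sets. Over the 10 genes the median of the log2 fold changes was −0.67, and over all probe sets it was −0.05. Since the 10 genes were chosen with earlier results of these data known, these shares and medians describe the set and do not test it. In whole muscle, fewer tendon cells and less RNA per tendon cell cannot be told apart. Nor can the amount of tendon in the dissected tissue, or a change in other cells that express these genes, be separated from them.

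**Figure D1:**
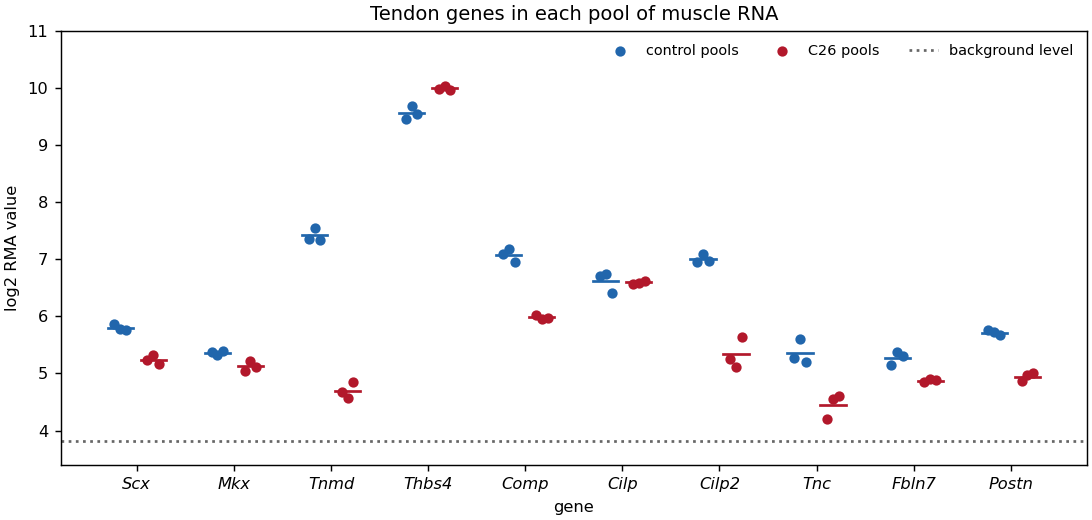
Log2 RMA value (vertical axis) of the 10 tendon genes in the control pools (blue, n = 3) and the C26 pools (red, n = 3), with group means as short lines and the background of 3.82 as a dotted line. The groups are far apart for Tnmd and Cilp2, overlap for Cilp and stand in the opposite order for Thbs4.

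Both regulator genes differed by less than 1.5-fold. Scx read 5.87, 5.77 and 5.77 in control replicates 1, 2 and 3, and 5.24, 5.33 and 5.16 in C26 replicates 1, 3 and 4. The groups did not overlap, and the log2 fold change was −0.56 (SE 0.08, 95% interval −0.74 to −0.38, adjusted p = 0.000924 from limma). This difference of 1.48-fold lies just under the 1.5-fold minimum, and without C26 replicate 3 it was −0.60 and passed. Mkx read 5.37, 5.33 and 5.39 in control pools and 5.05, 5.22 and 5.12 in C26 pools. All C26 pools lay lower, but the difference of −0.23 (SE 0.08, interval −0.41 to −0.06) had an adjusted p of 0.0501 from limma and did not pass. For Mkx the limma adjusted p was 0.0294 among probe sets above the background and 0.0183 among those above the median level. With a replicate block it was 0.223. The 1.5-fold minimum was not reached in any of these.

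Tnmd had the largest change of the set. Its values were 7.36, 7.56 and 7.35 in control replicates 1, 2 and 3, and 4.67, 4.57 and 4.85 in C26 replicates 1, 3 and 4. The lowest control pool thus stood 2.50 above the highest C26 pool on the log2 scale, and the SDs within groups were 0.12 and 0.14. Tnmd fell by 2.73 in log2 units, with an SE of 0.10 and a limma adjusted p of 1.96e-06, or 6.62-fold, and it ranked 14th in size among the falls of all 18782 named genes. The C26 mean of 4.70 remained above the background.

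The thrombospondin genes Thbs4 and Comp encode pentameric calcium-binding glycoproteins that bind collagen, and they moved in opposite directions. Comp, which encodes cartilage oligomeric matrix protein, was 7.09, 7.18 and 6.95 in control pools and 6.03, 5.95 and 5.98 in C26 pools, so that the groups lay far apart. It fell by 1.09 (SE 0.08, adjusted p = 3.96e-05 from limma), or 2.13-fold. Thbs4, a gene of tendon and of the muscle attachment that muscle fibers can also express, was 9.47, 9.68 and 9.54 in control pools and 9.98, 10.04 and 9.98 in C26 pools. Every C26 pool lay above every control pool, yet the difference of 0.43 (SE 0.08, interval 0.25 to 0.62, adjusted p = 0.00415 from limma) was 1.35-fold and did not reach the fold minimum. With unequal variances its adjusted p was 0.0785. The changes of Comp and Thbs4 differed by −1.52 (Comp minus Thbs4, SE 0.07, 95% t interval with pooled variance −1.72 to −1.32). A two-sided exact permutation test of this difference gave p = 0.1, the smallest value that 3 against 3 pools allow (also 0.1 after adjustment over the 2 pairs compared in this way). Both pairs were chosen after their values were seen, so the p and the interval only describe the difference.

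The CILP genes also parted. Both encode secreted glycoproteins first described in cartilage, and CILP is known to bind TGF-β1. Cilp2 was 6.96, 7.10 and 6.97 in control pools and 5.25, 5.11 and 5.64 in C26 pools. C26 replicate 4 stood above the other C26 pools, and the highest of them lay 1.32 under the lowest control pool. Cilp2 fell by 1.68 (SE 0.13, adjusted p = 4.39e-05 from limma), or 3.19-fold. A test with unequal variances gave an adjusted p of 0.05001, which narrowly missed. Cilp was 6.71, 6.74 and 6.42 in control pools and 6.57, 6.59 and 6.63 in C26 pools, and the C26 values lay inside the control range. Its log2 fold change was −0.03 (SE 0.10, adjusted p = 0.88 from limma), and the 95% interval of −0.25 to 0.20 lies within the 1.5-fold limits on both sides. The changes of Cilp2 and Cilp differed by −1.65 (SE 0.17, 95% t interval with pooled variance −2.12 to −1.18, exact permutation p = 0.1, the smallest possible). This pair, too, was chosen after its values were seen.

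**Figure D2:**
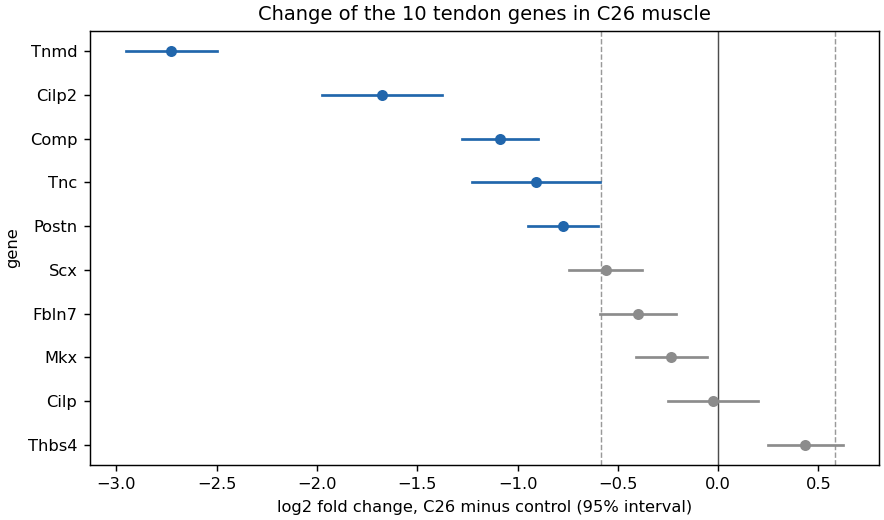
Log2 fold change of the 10 tendon genes (C26 minus control, points) with 95% intervals from limma (bars). Dashed lines mark the 1.5-fold minimum, blue marks genes that fell and gray those that did not pass, from Tnmd at −2.73 to Thbs4 at 0.43.

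Tnc and Postn encode tenascin-C and periostin, matricellular proteins that modulate how cells hold on to the matrix and that growth, loading and repair are known to induce. Tnc was 5.27, 5.61 and 5.19 in control pools and 4.20, 4.55 and 4.60 in C26 pools. Its spread within groups was among the widest of the set (SD 0.22 in either group), but the groups did not overlap. Tnc fell by 0.91 (SE 0.14, adjusted p = 0.00146 from limma), or 1.88-fold, and did not pass by a test with unequal variances (adjusted p = 0.0539). Postn was 5.76, 5.72 and 5.67 in control pools and 4.86, 4.97 and 5.00 in C26 pools, with a narrow spread in both groups. It fell by 0.77 (SE 0.08, adjusted p = 0.000139 from limma), or 1.71-fold. Fbln7, which encodes the cell-adhesive matrix protein fibulin-7, was 5.14, 5.37 and 5.31 in control pools and 4.84, 4.90 and 4.88 in C26 pools. All C26 pools were lower, by −0.40 (SE 0.08, interval −0.59 to −0.21, adjusted p = 0.0069 from limma), which is less than 1.5-fold. The adjusted p of Fbln7 was 0.100 with unequal variances and 0.0896 with a replicate block.

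**Figure D3:**
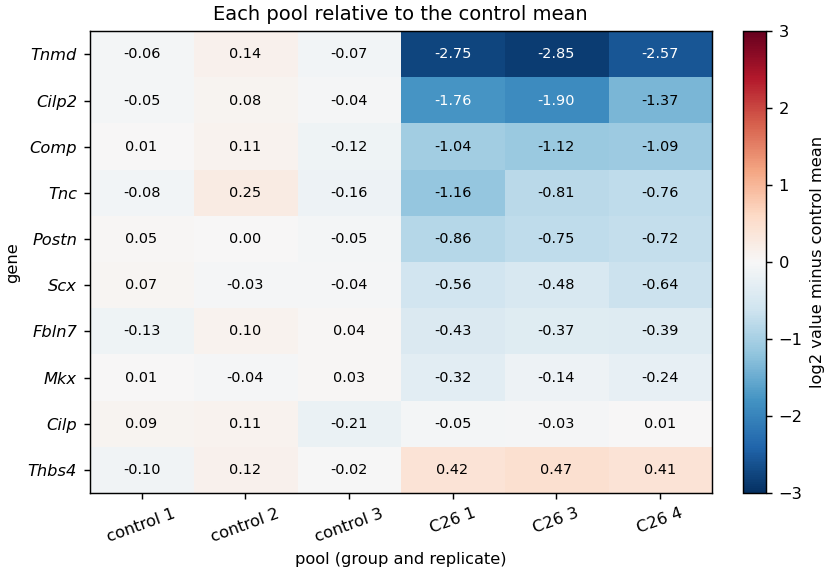
Log2 value of each pool minus the control mean (color and printed value) for the 10 tendon genes (rows) in 3 control and 3 C26 pools (columns). The C26 pools spanned −2.85 to −2.57 for Tnmd and 0.41 to 0.47 for Thbs4. Their spread was wider for Cilp2 (−1.90 to −1.37) and Tnc (−1.16 to −0.76).

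The C26 pools resembled each other over the set. Relative to the control mean, the median of the 10 genes was −0.71 in C26 replicate 1, −0.61 in replicate 3 and −0.68 in replicate 4. Within the control group, replicate 2 stood above the control mean for 8 of the 10 genes and replicate 3 for 2, with medians of 0.10 and −0.04. In the C26 group, replicate 1 stood above the group mean for 1 gene, Comp, and replicates 3 and 4 for 6 each. The 5 genes whose values over the 6 arrays were most like those of Tnmd were Bpgm (bisphosphoglycerate mutase), Psph (serine synthesis), Cmss1, Msh3 (DNA mismatch repair) and Chpt1 (phosphatidylcholine synthesis), with Pearson r from 0.9990 to 0.9995. None of them is a known tendon gene, and their own changes were smaller, between −1.22 and −0.37. Among 13349 genes ranked in this way, Comp was number 87 (r = 0.994), Cilp2 169 (r = 0.992) and Postn 178 (r = 0.991), while Cilp had an r of 0.16 and Thbs4 one of −0.94. All arrays share 1 normalization and each r rests mostly on the distance between the groups.

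Relatives of these genes in the same protein families did not all share their direction. Outside the members, Thbs1, a thrombospondin gene whose product can activate latent TGF-β, rose by 1.17 (SE 0.18, adjusted p = 0.00162 from limma). It did not pass with unequal variances (adjusted p = 0.111), and Thbs2 (−0.46) and Thbs3 (0.14) did not pass in limma. Of 5 other fibulin genes measured, 1 rose and 4 did not pass. It was Fbln1, which encodes a basement membrane and fibrin-binding fibulin, which rose by 0.89 (SE 0.09, limma adjusted p = 0.000178). Of 3 other tenascin genes and 3 other genes of the fasciclin domain family of periostin, 0 passed in either direction. Of 5 other genes of the BRICHOS family, to which Tnmd belongs, 2 fell, namely Itm2a by 1.56 (SE 0.10) and Itm2c, which fell by 0.59 (SE 0.08) and lay close to the fold minimum. The call of Itm2c was lost without control replicate 2 (−0.56), without C26 replicate 3 (−0.58) or 4 (−0.56), with median centring (−0.53) and with a replicate block (−0.53). The chondromodulin gene Cnmd, the closest relative of Tnmd, lay below the background in both groups.

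**Figure D4:**
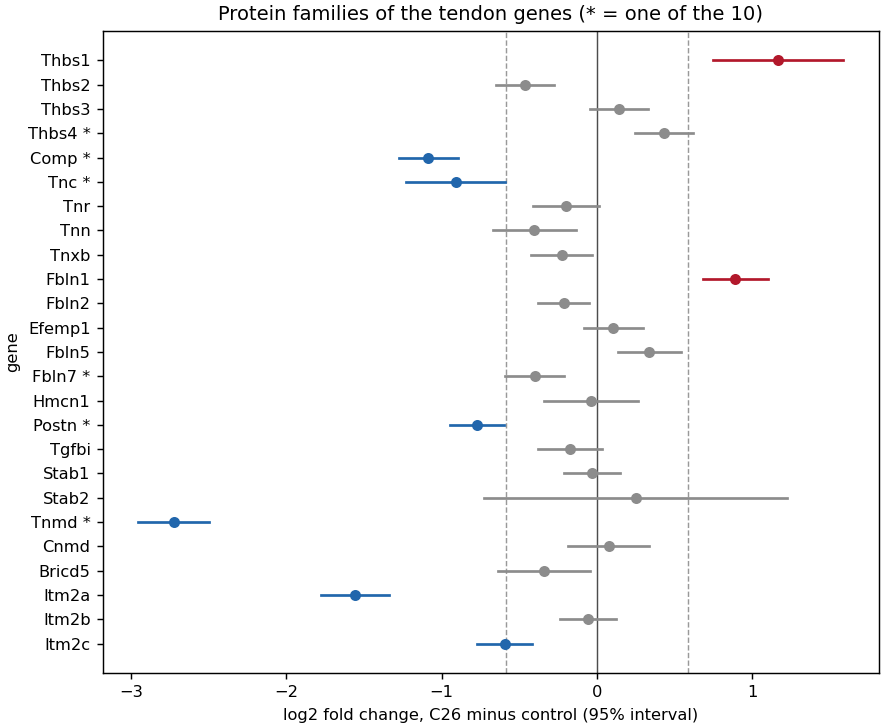
Log2 fold change (C26 minus control) with 95% intervals for the measured thrombospondin, tenascin, fibulin, fasciclin domain and BRICHOS family genes, from top to bottom. Asterisks mark members of the tendon set, red marks genes that rose, blue those that fell and gray those that did not pass. Comp and Thbs1 lie on opposite sides within 1 family.

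Collagens and the small proteins that bind them were counted beside the set. Of 9 measured collagen genes of tendon, 8 fell and 1 did not pass (median change −1.17), while 4 fell by a test with unequal variances and 5 with a fold minimum of 2. Col1a1 and Col1a2, the chains of the main fibrillar collagen of tendon, had the largest of these falls, with log2 fold changes of −2.61 (SE 0.19) and −2.29 (SE 0.15). Col6a1 and Col6a2, chains of the collagen around cells, had log2 fold changes of −1.43 and −1.33, and Col6a1 did not pass with unequal variances (adjusted p = 0.0539). Of 9 leucine-rich proteins of tendon, which bind collagen fibrils, 4 fell and 5 did not pass (median change −0.56). Without the fold minimum 6 were lower and 1 was higher, namely Bgn (biglycan), by 0.48 (SE 0.08, adjusted p = 0.00266 from limma). Aspn (asporin, −0.56) fell with a replicate block (−0.61), without control replicate 2 (−0.59) and without C26 replicate 4 (−0.59). Chad (chondroadherin) and Kera (keratocan) changed by more than Tnmd, with log2 fold changes of −3.79 (SE 0.10) and −2.80 (SE 0.10). Fmod (fibromodulin) fell by 1.40 and Ogn (osteoglycin) fell by 1.36, whereas Dcn (decorin) was at 11.02 ± 0.06 in control and 11.05 ± 0.07 in C26 muscle, a difference of 0.03 (SE 0.08, adjusted p = 0.835 from limma).

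Among factors that act with or beside scleraxis and mohawk, few passed. Of 10 partner and related helix-loop-helix genes, which include the E-proteins that pair with scleraxis and the Id proteins that block such pairing, 0 fell and 0 rose, while 3 were lower and 1 was higher without the fold minimum. Id2 (−0.52) fell without C26 replicate 4 (−0.60) and with a replicate block (−0.61). Of 7 measured homeodomain genes of the TALE class, to which Mkx belongs, 1 rose. It was Tgif1, a corepressor of TGF-β signaling, which went from 6.29 ± 0.08 to 8.52 ± 0.10, a rise of 2.23 (SE 0.08, adjusted p = 1.96e-06 from limma). Of 6 measured other transcription factor genes of tendon, Six2 fell by 0.74 (SE 0.10) and Egr1, an immediate early gene that loading is known to induce, rose by 0.64 (SE 0.15, adjusted p = 0.0133). The call of Egr1 was lost without control replicate 1 (0.47), with the methods' t-test, with unequal variances, with quantile normalization and with a replicate block.

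TGF-β is known as a main inducer of scleraxis and of tendon matrix. Of 17 measured genes of this pathway, 3 fell, 3 rose and 11 did not pass (median change −0.07). The ligand gene Tgfb2 fell by 1.23 (SE 0.08, adjusted p = 2.12e-05 from limma), and Ltbp4, which encodes a binding protein of latent TGF-β, fell by 0.76 (SE 0.08). Smad3, which encodes a signal transducer, fell by 0.84 (SE 0.12) but did not pass with unequal variances (adjusted p = 0.0532). The receptor genes rose, Tgfbr2 by 0.92 (SE 0.11), Tgfbr3 by 0.92 (SE 0.08) and Tgfbr1 by 0.81 (SE 0.09). The number that rose was 5 with median centring, which added Smad7 (0.60) and Ccn1 (0.59), and 4 with a replicate block (Smad7, 0.65). Smad7 also passed without control replicate 2 (0.59) and without C26 replicate 4 (0.60). Ccn1 also passed without control replicate 3 (0.59) and without C26 replicate 3 (0.59). Of 12 genes of receptors that bind tenascin-C, periostin or thrombospondins, 3 rose and 0 fell. They were Sdc4 (syndecan-4, 1.40, SE 0.12, lost with unequal variances at an adjusted p of 0.0556), Itga5 (integrin α5, 0.79, SE 0.11) and Cd36 (thrombospondin receptor and fatty acid carrier, 0.75, SE 0.07).

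**Figure D5:**
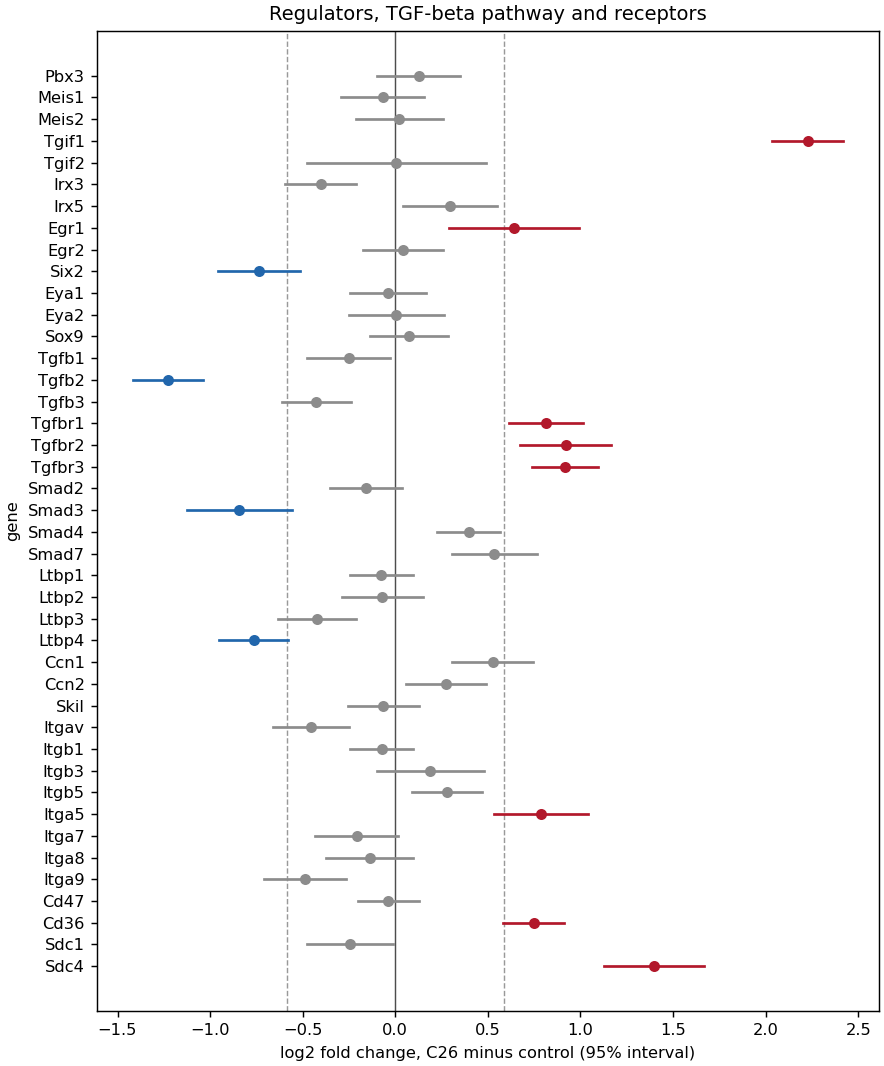
Log2 fold change (C26 minus control) with 95% intervals for mohawk-related factors, other tendon transcription factors, TGF-β pathway genes and receptors, from top to bottom. The 3 TGF-β receptor genes lie right of the dashed 1.5-fold line, while Tgfb2, Smad3 and Ltbp4 lie left of it.

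Markers of the attachment and of other cells that the dissected tissue could hold were measured beside the tendon genes, and their part in these results was not tested. Of 7 genes of the myotendinous junction, where fibers end on tendon, 1 fell and 0 rose. It was Fras1, a basement membrane gene, with −0.88 (SE 0.08). The number that fell was 2 without control replicate 1 (Adamts20, −0.63), without C26 replicate 1 (Col22a1, −0.63) and without C26 replicate 4 (Adamts20, −0.60). Ankrd1 (adjusted p = 0.0504) also passed under 6 of the 18 alternatives, among them median centring and leaving out C26 replicate 1. Of 5 genes listed here as tenocyte markers outside the set, Chodl did not pass and 4 fell. The 4 (Chad, Kera, Fmod and Col11a1) were already counted among the collagens and leucine-rich proteins. How specific Chodl is for tenocytes was not tested. The mean level of the 5 was 7.59 to 7.66 in control and 5.78 to 5.97 in C26 pools. Of 8 measured markers of fibroblasts and fibro-adipogenic cells, 4 fell and 4 did not pass, with mean levels of 7.47 to 7.59 and 7.06 to 7.23. Those that fell were Col15a1 (−1.38), Dpp4 (−0.83), Dpt (−0.79) and Cd34 (−0.66). With unequal variances Col15a1, Dpp4 and Cd34 did not pass (adjusted p = 0.0862, 0.0688 and 0.0529). Without the fold minimum 4 of the markers were lower and 2 were higher. Pdgfra, the receptor that defines these cells, was among the higher ones, by 0.50 (SE 0.07, adjusted p = 0.00135 from limma), less than 1.5-fold. Of 7 cartilage markers, 4 exceeded the background, among them Col2a1 (6.28 ± 0.12 and 5.66 ± 0.08) and Col9a1 (5.07 ± 0.10 and 4.64 ± 0.19), and 3 did not, among them Acan, the aggrecan gene (mean levels 4.04 to 4.28 and 4.00 to 4.05). Col2a1 was the 1 that fell, by 0.62 (SE 0.09), and its call was lost without control replicate 2 (−0.55), without C26 replicate 4 (−0.57), with median centring (−0.55) and with a replicate block (−0.50). Of 6 bone markers, 2 exceeded the background, and 1, Alpl, fell (not with unequal variances, adjusted p = 0.0775), with mean levels of 3.80 to 3.91 and 3.64 to 3.66. Adipocyte markers fell in 3 of 4, with mean levels of 5.40 to 5.71 and 4.68 to 4.97. Of these, Plin1 (−1.51) passed in each of the 18 alternatives, whereas Adipoq lost its call in 10 and Lep in 8 of them. Both were lost with the methods' t-test, without control replicate 1 (−0.53 and −0.50) and without C26 replicate 3 (−0.50 and −0.54), and Adipoq also without control replicate 2 (−0.52). Macrophage markers rose in 3 of 5 (5.65 to 5.72 and 6.42 to 6.55), namely Itgam (1.71), Cd163 (1.28) and Mrc1 (0.93). No difference was detected for the other macrophage markers, Adgre1 (0.002) and Csf1r (0.02), with limma adjusted p of 0.993 and 0.913. How specific Itgam is for macrophages was not tested. Neutrophil markers rose in 5 of 6 (3.14 to 3.23 and 4.62 to 4.91). Of the 6, 5 exceeded the background in at least 1 group and 2 in both. Of 6 endothelial markers 1 fell (7.23 to 7.35 and 7.00 to 7.15), of 7 markers of smooth muscle and pericytes 1 fell (7.28 to 7.36 and 7.14 to 7.27) and of 4 erythroid markers 3 rose (5.34 to 5.67 and 5.93 to 6.29). Without C26 replicate 3 only 1 erythroid marker rose (Alas2), since Hbb-bt (0.74, limma adjusted p = 0.0533) and Slc4a1 (0.55) did not pass. Hbb-bt was also lost without C26 replicate 4 (0.66), and Slc4a1 without control replicate 3 (0.55). Of 3 Schwann cell and 4 lymphocyte markers 0 passed, and only 1 of the lymphocyte markers exceeded the background. Of 7 genes of fast fibers 1 fell, with mean levels of 12.27 to 12.31 and 12.06 to 12.09, and of 5 genes of slow fibers 0 did.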

How the data were processed

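RNA pools of gastrocnemius and plantaris muscle (3 control, 3 C26) were profiled on 6 arrays. The authors computed the deposited log2 values with RMA in GenePattern, using the Brainarray custom CDF, version 13 (1 probe set per gene), and RNA integrity numbers were at least 8.0. RMA subtracts background and makes the probe intensity distributions equal, so a change shared by most genes would not be seen. A genome build for the probes was not given in the sources used here.

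Of 21212 probe sets, 18782 were named uniquely and 2420 are unnamed here. The main test was limma (version 3.58.1, R 4.3.3, lmFit and eBayes, two-sided, 95% intervals), adjusted over all probe sets. The script was tested on simulated data. Differences between paired members were tested by exact permutation (Python 3.11.15, SciPy 1.17.1), a comparison added after values were seen. Their intervals are t intervals with pooled variance and do not come from limma.

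The members and lists were chosen with earlier results of these data known. Named were the 10 members, up to 4 called genes with the largest change per related list, markers up to 3 per list (the tenocyte and fibroblast lists have 4 each, and some marker lists are given by counts), and the 5 genes most like Tnmd by Pearson r. Other genes (Thbs2, Thbs3, Cnmd, Dcn, Bgn, Aspn, Ckm, Pdgfra, Chodl, Acan, Id2, Col9a1, Adamts20, Col22a1, Ankrd1, Tgfbr1, Ltbp4, Adgre1, Csf1r, Smad7, Ccn1) were named after their values were seen. Listed genes that no named probe set covers are not analysed here. The alternatives were other tests, variance models, scalings, filters and fold minimums, a replicate block, and leaving out each pool.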

Additional observations from a re-analysis of the deposited data

How the results depend on the processing

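The 5 falls (Tnmd, Cilp2, Comp, Tnc and Postn) and the absence of a rise held under the other tests, variance models, scalings and filters, except as follows. With unequal variances 3 genes fell, since Cilp2 (−1.68) and Tnc (−0.91) no longer passed. With a fold minimum of 2, 3 fell, without Tnc (−0.91) and Postn (−0.77). Among probe sets above the median level Tnc was not tested and 4 fell. The shares of all probe sets that fell under these settings are not given here. These counts therefore cannot be set against the share given for the main thresholds. With no fold minimum 7 were lower and 1 was higher, as Scx (−0.56), Fbln7 (−0.40) and Thbs4 (0.43) passed. Leaving out each pool in turn gave 5 to 6 falls and 0 rises, the sixth being Scx without C26 replicate 3, with log2 fold changes of Scx from −0.60 to −0.52. Cilp changed sign in 4 of 18 alternatives and never passed (−0.13 to 0.04). The groups share replicate numbers 1 and 3, but deviations from group means correlated at −0.06 between same-numbered pools, so the numbers are not taken to pair them. With a replicate block 5 fell and 0 rose. Median centring moved the median of all probe sets from −0.05 to 0.02 and the numbers of all probe sets that fell and rose from 1049 and 1261 to 839 and 1534. Tnmd lay between −2.80 and −2.66 in the 18 alternatives. The 3 pools per group limit the precision, and the smallest exact permutation p is 0.1.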

Other observations

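Ankrd1, a gene of stretched muscle fibers and of the myotendinous junction, differed among the C26 pools. It was 5.47, 5.15 and 5.11 in control replicates 1, 2 and 3, and 5.33, 7.66 and 7.53 in C26 replicates 1, 3 and 4. C26 replicate 1 lay within the control range, and the log2 fold change of 1.597 (SE 0.53) had an adjusted p of 0.0504 from limma and did not pass, while without C26 replicate 1 it was 2.35 (adjusted p = 4.65e-05). Among the 10 tendon genes, C26 replicate 1 did not stand apart to this degree, with Tnmd at 4.67, between the 4.57 and 4.85 of the other C26 pools.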
